A study of Danio rerio with 4 samples.

Results

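The genes described here encode histones, high-mobility-group (Hmg) proteins, histone chaperones and chromobox (Cbx) proteins. They were taken by symbol, as every gene whose name starts with a histone, Hmga, Hmgb, Hmgn, Nap1l, Anp32, Asf1 or Cbx1 to Cbx8 stem, or is Set, and that had at least 1 UMI in the 4 libraries together. Of 64 gene IDs with such a symbol, 42 had a UMI and are the members, among 8640 genes with a UMI in all. A UMI (unique molecular identifier) marks 1 captured RNA molecule. The embryos were gastrula-stage zebrafish of the AB strain, taken 9 hours after fertilization (9 hpf). They were mosaics with scattered cells that carried either β-catCA, a constitutively active β-catenin that turns on Wnt signalling, or green fluorescent protein (GFP) alone as the control. Cells without GFP were sorted from both, giving 2 libraries (lots 1 and 2) of β-catCA mosaics and 2 libraries (lots 1 and 2) of control GFP mosaics. The sorted cells of both groups thus showed no GFP themselves, and the comparison asks how cells that share an embryo with Wnt-active cells differ from cells that share one with control GFP cells. The labels do not say which promoter drove the transgenes, how many embryos were pooled, how near the sorted cells lay to marked ones, or whether the lots came from separate clutches, so any p-value measures only the spread between these libraries.

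Histones wrap DNA into nucleosomes. The bulk of the core histones is made in S phase from mRNAs that end in a stem-loop, whereas variants such as H3.3 and H2A.Z are made throughout the cell cycle from polyadenylated mRNAs. CEL-Seq2, the method used here, primes cDNA at the poly(A) tail and counts molecules at the 3′ end. A count thus does not grow with transcript length, and levels of different polyadenylated mRNAs can be set side by side. mRNAs that end in a stem-loop in place of a poly(A) tail are largely missed, so their counts cannot be set beside those of the variants. Linker histone H1 closes the nucleosome, Hmga proteins bind AT-rich DNA, Hmgb proteins bend DNA, and Hmgn proteins bind the nucleosome itself. Chaperones of the Nap1l, Set, Anp32 and Asf1 families carry histones to and from DNA, and Cbx proteins read methylated histone H3 in heterochromatin or in Polycomb-silenced genes. Early fish embryos start from maternal stores of histones and Hmg proteins and still replicate their chromatin during gastrulation.

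The libraries held 65098 and 8403 gene UMIs in β-catCA lots 1 and 2, and 61304 and 59260 gene UMIs in control lots 1 and 2. β-catCA lot 2 was thus far shallower than the others, and 1 UMI in it stands for 124.5 CPM (UMIs per 1000000 gene UMIs, scaled with trimmed-mean factors), against 15.2 to 16.5 CPM in the other 3 libraries. In that lot 35.8% of all deposited counts stood in the not-aligned row, against 19.9% in β-catCA lot 1 and 21.1% and 22.9% in the control libraries. All 15 genes matched to a list of gastrula markers had UMIs, as did all 17 matched to a list of proliferation markers. Gastrula markers summed to 6649 and 5850 CPM in β-catCA lots 1 and 2, against 8452 and 8200 CPM in control lots 1 and 2. Of 11 tested, 10 had negative changes (median -0.52) and 0 passed. Among all tested genes 51.8% had negative changes (median -0.03) and 0.84% passed. Markers of the enveloping layer, the outer epithelium, summed to 1998 and 2489 CPM in β-catCA lots 1 and 2, against 1159 and 873 CPM in control lots 1 and 2. They had UMIs for 10 of 17 genes, with grhl3 and agr1 at 0. Most of these UMIs were of krt8 (79 and 13 against 35 and 27) and krt18a.1 (34 and 4 against 19 and 18), in the same order of lots. Only these 2 genes were tested, and 1 passed, krt8 (log2 change 1.37, edgeR adjusted p = 0.038). This call was lost with DESeq2 size factors, library totals alone and trimmed-mean factors from all genes, where 0 genes were called higher. It was also lost with no filter, by DESeq2, by limma-voom and with lot number as a block, again with 0 genes called higher. krt4 had 7 and 1 UMIs against 10 and 2, and krt5 had 5 and 0 against 4 and 2, so the list did not move as a whole. The groups did not overlap for the gastrula or the enveloping layer sums, and their part in any value below was not tested. Yolk syncytial layer markers had 18 UMIs in all, with mxtx1 and mxtx2 at 0, and primordial germ cell markers had 10, with ddx4 and piwil1 at 0. In such bulk samples fewer cells of a type and less RNA per cell cannot be told apart.

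The members together held 2462 and 298 UMIs in β-catCA lots 1 and 2, against 2100 and 2233 UMIs in control lots 1 and 2. As a share of gene UMIs this was 3.78% and 3.55% in the β-catCA libraries and 3.43% and 3.77% in the control libraries, with 95% exact binomial intervals from 3.64% to 3.93%, 3.16% to 3.96%, 3.28% to 3.57% and 3.62% to 3.92% in the same order. The control lots lay farther apart than the groups did. Intervals cover counting error only. In scaled terms the sum was 37319 ± 319 CPM in β-catCA mosaics and 35289 ± 2092 CPM in controls (SD, n = 2 each). The log2 ratio of 0.08 was -0.18 with DESeq2 size factors, so no direction is given for the family's total.

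A few members carried most of these transcripts. hmga1a (ENSDARG00000028335), which encodes an AT-hook protein, held 22.9% of all member UMIs and ranked 6 among the 8640 genes by mean CPM. It was followed by a SET gene (ENSDARG00000031495) at rank 25, h3f3a at rank 36, hmgn1b at rank 42 and h3f3d at rank 53. These 5 genes held 54.7% of the member UMIs, 8 members stood among the 100 most abundant genes, and 8 of the 42 members had fewer than 10 UMIs in all. In the plot of levels by library, hmga1a is the highest member in all 4 libraries.

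**Figure D1:**
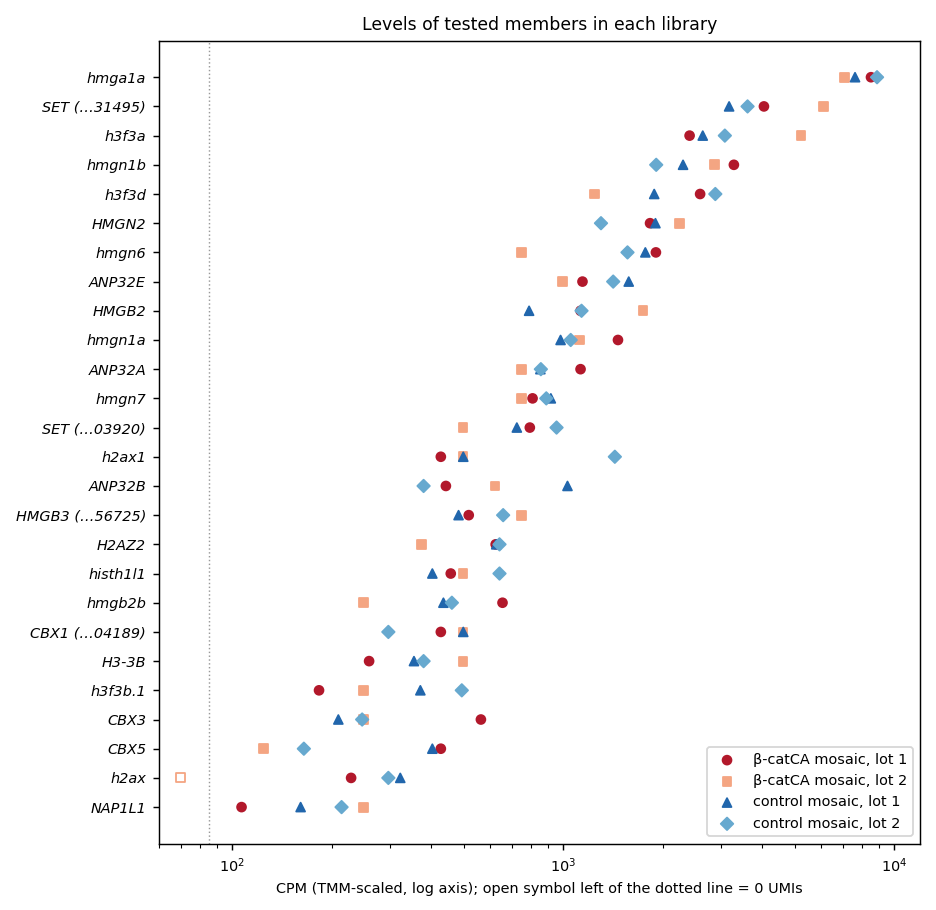
CPM (log axis) of the members that passed the filter on low counts (27, of which 1 is not drawn), 1 row per gene and 1 symbol per library, ordered by mean CPM. hmga1a lies at 7095 CPM or above in all 4 libraries and NAP1L1 at 249 CPM or below, and the open square marks h2ax, which had 0 UMIs in β-catCA lot 2.

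Among the genes found by symbol, the core histone transcripts seen were those of variants almost without exception. This is no full survey of histone genes. The matched symbols held no H4 gene, and histone genes under other names or without a symbol were not counted. The H3.3 genes h3f3a, h3f3d, h3f3b.1 and H3-3B held 1156 UMIs, the H2A.X genes h2ax1 and h2ax 203, and the H2A.Z gene H2AZ2 122. The other 4 core histone genes with a UMI (hist2h2l, h3c13a, hist1h2a3 and hist1h2a11) had 5 UMIs between them, all in the control libraries. Of 26 matched histone symbols, 13 had no UMI in any library, among them h1m, the maternal linker histone gene. Another 9 symbols of the name pattern, such as HMGA2 and most Polycomb CBX genes, were also listed at 0. A count of 0 allows up to 3 UMIs, which is 45.7 and 373.4 CPM in β-catCA lots 1 and 2, and 48.3 and 49.4 CPM in control lots 1 and 2. These limits hold for polyadenylated mRNA only. Low or absent counts of core histone genes do not show that their stem-loop mRNAs were scarce, as priming at the poly(A) tail largely misses these. Near-identical histone copies can lose or share reads in counting, so the values of single copies are uncertain.

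The number of members seen was also set beside the number expected at equal depth. There were 37 and 30 members with a UMI in β-catCA lots 1 and 2, against 39 and 39 in control lots 1 and 2. At the 8403 UMIs of the shallow lot, 31.2 members would be expected in β-catCA lot 1, and 30.9 in each of the control lots. The shallow lot therefore held about as many different members as the other libraries would at its depth.

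Genes were tested with edgeR's quasi-likelihood test over the 1071 genes that passed its filter, with Benjamini-Hochberg adjustment over all of them. The filter kept 27 of the 42 members, and these held 97.7% of the member UMIs. None of the 27 passed the adjusted threshold of 0.05: 0 were higher and 0 lower in β-catCA mosaics, where 0.84% of all tested genes passed (0.28% higher, 0.56% lower). At an unadjusted p under 0.05 there were 5 members (3 higher, 2 lower), or 18.5%, beside 10.5% of all tested genes (4.39% higher, 6.07% lower). By DESeq2, which gave a p for all 42 members, 0 passed, with 0 at an unadjusted p under 0.05, beside 0.243% of 8640 genes. By limma-voom 0 of 27 passed, with 3 at an unadjusted p under 0.05, or 11.1%, near the 11.7% of all 1071 tested genes. Fitted changes (β-catCA minus control, log2) were positive for 12 and negative for 15 members, with a median of -0.06, where all tested genes had 48.2% positive and 51.8% negative changes and a median of -0.03. Fitted changes weigh libraries by depth and so differ from ratios of mean CPM.

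The absence of calls has limits that differ between members. For 12 of the 27, the 95% interval of the change lay within 2-fold in both directions. hmga1a was the most closely bounded of all, at 8509 and 7095 CPM in β-catCA lots 1 and 2, against 7615 and 8875 CPM in control lots 1 and 2. Its groups overlapped, and its log2 change of -0.06 had an interval from -0.53 to 0.41. For the other 15, changes beyond 2-fold stayed inside the interval in at least 1 direction. Of the 27, 8 had 3 UMIs or fewer in β-catCA lot 2.

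**Figure D2:**
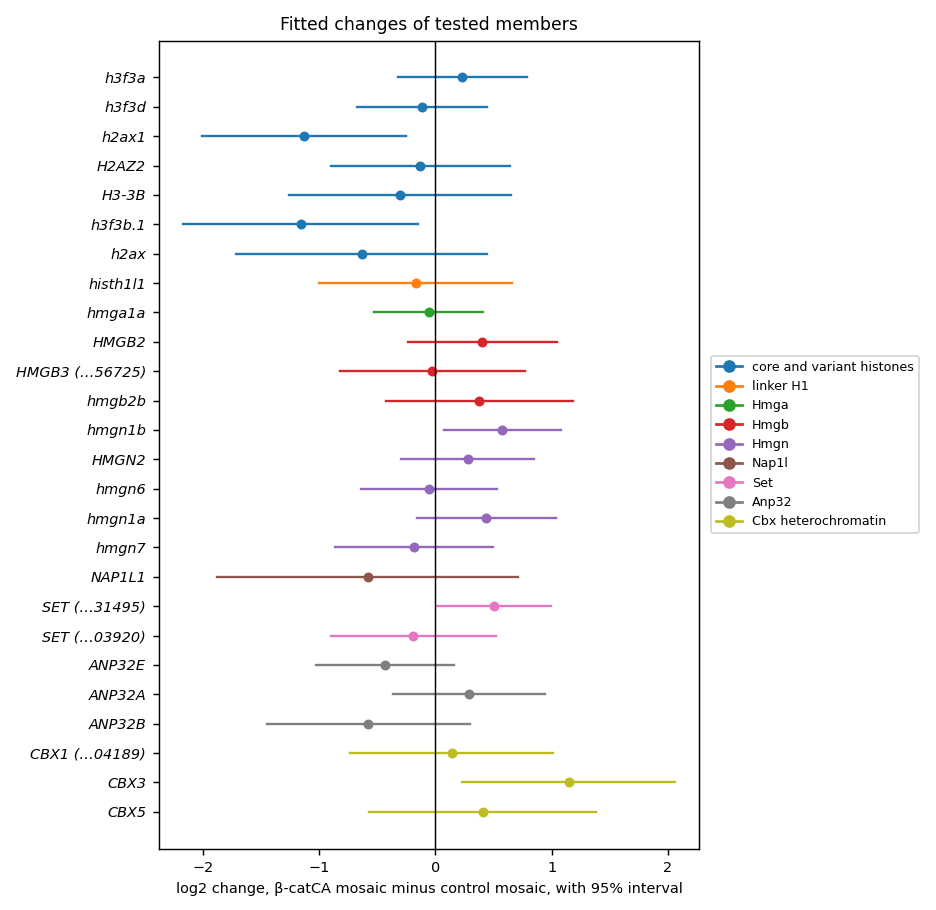
Fitted log2 change (β-catCA mosaic minus control mosaic) of tested members (27, of which 1 is not drawn) with the 95% interval, grouped and coloured by class. Intervals of h2ax1, h3f3b.1, CBX3, hmgn1b and the SET gene ENSDARG00000031495 exclude 0 before adjustment, and 0 of 27 passed after it.

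Among the H3.3 genes, h3f3a stood at 2409 and 5228 CPM in β-catCA lots 1 and 2, against 2640.4 and 3079 CPM in control lots 1 and 2. Its partner h3f3d stood at 2592 and 1245 CPM in the β-catCA libraries, against 1884 and 2882 CPM in the control libraries. The 2 genes thus went opposite ways in β-catCA lot 2, while β-catCA lot 1 lay among the controls for h3f3d and just under them for h3f3a. Summed over the 4 genes, H3.3 transcripts were at 6332 ± 1255 CPM in β-catCA mosaics and 6041 ± 1121 CPM in controls (SD, n = 2 each), a log2 ratio of 0.07.

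Shares within a family do not depend on how libraries are scaled, and they show the same departure. h3f3a made up 44.3% and 72.4% of the H3.3 UMIs of β-catCA lots 1 and 2, against 50.3% and 45.1% in control lots 1 and 2. The exact interval of the share in β-catCA lot 2 ran from 59.1% to 83.3%, above those of the other 3 libraries, of which the highest bound was 55.9%. h3f3d made up 47.6% and 17.2% in the β-catCA libraries, against 35.9% and 42.2% in the control libraries. The departure lies between the β-catCA libraries and not between the groups, and without β-catCA lot 2 the log2 changes were -0.25 for h3f3a and 0.12 for h3f3d.

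**Figure D3:**
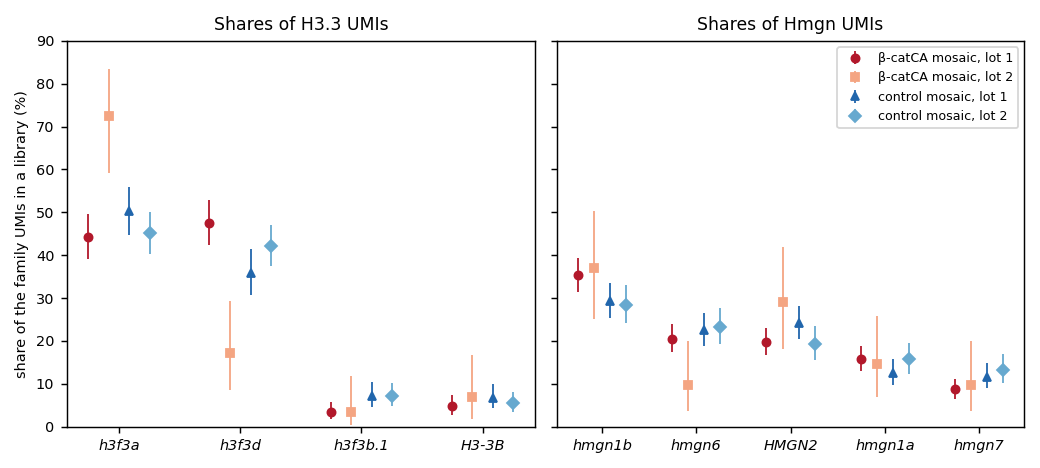
Share of the H3.3 UMIs (left) and Hmgn UMIs (right) of each library that each gene holds, in percent, with 95% exact binomial intervals. β-catCA lot 2 has 72.4% h3f3a and 17.2% h3f3d, while the other 3 libraries lie between 44.3% and 50.3% for h3f3a and between 35.9% and 47.6% for h3f3d.

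The sparser H3.3 gene h3f3b.1 (ENSDARG00000068434) had 12 and 2 UMIs in β-catCA lots 1 and 2, against 23 and 30 UMIs in control lots 1 and 2. Both β-catCA libraries lay below both controls, at 216 ± 46.6 CPM against 432 ± 87.5 CPM (SD, n = 2 each). The log2 change of -1.16 (SE 0.50) did not pass (edgeR adjusted p = 0.40). It kept its sign under all 11 alternatives, from -1.36 to -0.78. Where groups do not overlap, leaving out 1 library can hardly turn a sign, so a kept sign adds little. Groups that do not overlap were common: 37% of the tested members (4 with β-catCA above, 6 with β-catCA below) and 40.8% of all tested genes (17.2% above, 23.6% below) had them. H3-3B, another H3.3 gene, had 17 and 4 UMIs in the β-catCA libraries and 22 and 23 in the control libraries, a log2 change of -0.31 (SE 0.48).

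H2A.X is the H2A variant that is phosphorylated at DNA breaks. h2ax1 (ENSDARG00000068995) had 28 and 4 UMIs in β-catCA lots 1 and 2, against 31 and 87 UMIs in control lots 1 and 2. At 427, 498, 499 and 1433 CPM in that order, control lot 2 stood alone and the other 3 libraries lay together. The log2 change was -1.13 (SE 0.43, edgeR adjusted p = 0.33), the smallest p among the members. Without control lot 2 it was -0.18, and without control lot 1 it was -1.70 and passed (edgeR adjusted p = 0.038), the only call of a member under any alternative. The second gene, h2ax, had 15 and 0 UMIs in the β-catCA libraries, against 20 and 18 in the control libraries, a log2 change of -0.64 (SE 0.54). Without β-catCA lot 1 only the library at 0 UMIs remains in its group, and the fitted change of -6.77 then depends on the fit's prior count. H2AZ2, an H2A.Z gene whose product marks promoters, had 41 and 3 UMIs in the β-catCA libraries, against 39 and 39 in the control libraries. Its log2 change was -0.13, with an interval from -0.90 to 0.64, and leaving out either β-catCA library gave -0.75 (lot 1 left out) or -0.02 (lot 2 left out).

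Of the linker histone genes, histh1l1, an H1-like gene, had 30 and 4 UMIs in the β-catCA libraries, against 25 and 39 in the control libraries. Its groups overlapped. Whether its mRNA ends in a stem-loop or a poly(A) tail was not tested, so its level is not set beside those of the core variants.

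The Hmgn genes were the class with most scaled transcripts in β-catCA lot 1 and in control lot 1. In β-catCA lot 2 and control lot 2 core and variant histones were. Of their 5 members, 3 had groups that did not overlap, hmgn1b and hmgn1a with β-catCA above and hmgn7 with β-catCA below. Among all tested genes 40.8% had such groups (17.2% above, 23.6% below), so this count is no trait of the class. hmgn1b (ENSDARG00000103919) stood at 3279 and 2863 CPM in β-catCA lots 1 and 2, against 2302 and 1910.1 CPM in control lots 1 and 2. Its paralog hmgn1a stood at 1464 and 1120.3 CPM in the β-catCA libraries, against 982 and 1054 CPM in the control libraries. The log2 changes were 0.58 (SE 0.25, edgeR adjusted p = 0.40) for hmgn1b and 0.44 (SE 0.30, edgeR adjusted p = 0.67) for hmgn1a, and neither gene passed. Their changes kept their sign under all 11 alternatives, from 0.29 to 0.72 for hmgn1b and from 0.15 to 0.52 for hmgn1a. Together, a pair chosen after the values were seen, they made up 51.1% and 51.6% of the Hmgn UMIs of β-catCA lots 1 and 2, against 41.7% and 44.1% of those of control lots 1 and 2. The exact intervals ran from 47.0% to 55.1% and 38.6% to 64.5% in the β-catCA libraries, and from 37.3% to 46.2% and 39.2% to 49.1% in the control libraries, so the shallow lot's interval covers the control values.

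The other 3 Hmgn genes gave no common direction. HMGN2 stood at 1829.9 and 2241 CPM in the β-catCA libraries, against 1899.8 and 1301 CPM in the control libraries, so the control lots differed more than the group means did. hmgn6 stood at 1906 and 747 CPM in the β-catCA libraries, against 1771 and 1564 CPM in the control libraries, and β-catCA lot 2, with 6 UMIs, was the library apart. hmgn7 stood at 808 and 747 CPM in the β-catCA libraries, against 918 and 889 CPM in the control libraries, a log2 change of -0.18 (SE 0.34) with groups that did not overlap. As a class Hmgn genes summed to 8502 ± 1110 CPM in β-catCA mosaics and 7295 ± 817 CPM in controls (SD, n = 2 each). The log2 ratio of 0.22 became -0.02 with DESeq2 size factors.

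Of the 6 Hmgb genes, 3 passed the filter. HMGB2 stood at 1128 and 1743 CPM in β-catCA lots 1 and 2, against 789 and 1136 CPM in control lots 1 and 2, and its groups overlapped narrowly. hmgb2b had 43 and 2 UMIs in the β-catCA libraries, against 27 and 28 in the control libraries, so its 2 β-catCA libraries lay on either side of the controls. The HMGB3 gene ENSDARG00000056725 had 34 and 6 UMIs in the β-catCA libraries, against 30 and 40 in the control libraries. Fitted log2 changes were 0.40 (SE 0.32), 0.38 (SE 0.40) and -0.03 (SE 0.40) in that order, and none passed.

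The Hmgb members below the filter were sparse. hmgb1a had 14 and 1 UMIs in the β-catCA libraries, against 5 and 4 in the control libraries, a log2 change of 1.27 with an interval from -0.22 to 2.77 in the edgeR fit without the filter. hmgb1b had 8 and 1 UMIs against 3 and 5, and the HMGB3 gene ENSDARG00000006408 had 12 and 1 UMIs against 7 and 6, in the same order of lots. All 3 had both β-catCA libraries above both controls in CPM, but each rests on 1 UMI in β-catCA lot 2. That 1 UMI stands for 124.5 CPM, while these genes lay between 48.3 and 112.7 CPM in the control libraries. The share of such groups among all genes below the filter was not counted, so no common direction is drawn from them. Summed over the 6 genes, Hmgb transcripts were at 2821 and 3112 CPM in the β-catCA libraries, against 1948 and 2503 CPM in the control libraries. The groups did not overlap, and the log2 ratio of 0.41 became 0.14 with DESeq2 size factors and 0.07 with trimmed-mean factors taken from all genes.

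**Figure D4:**
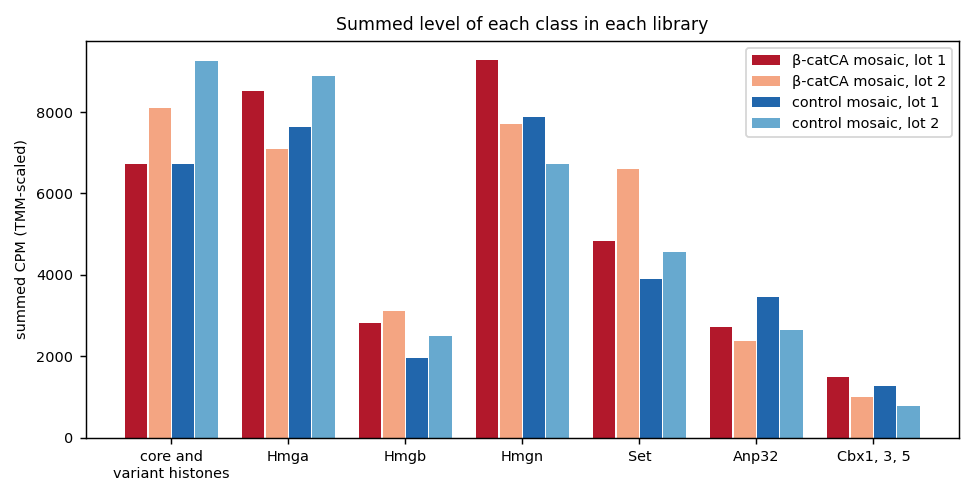
Summed CPM by class in each library, 1 bar per library. Set and Hmgb sums are higher in both β-catCA libraries than in both controls (Set 4834 and 6597 against 3896 and 4561 CPM), while core and variant histones, Hmga, Hmgn, Anp32 and Cbx1, 3, 5 overlap. The SET gene ENSDARG00000031495 holds 82.1% of the Set UMIs, and without it the log2 ratio of Set is -0.38 in place of 0.43.

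Among the chaperones, the abundant SET gene (ENSDARG00000031495) stood at 4041 and 6099 CPM in β-catCA lots 1 and 2, against 3172 and 3606 CPM in control lots 1 and 2. SET proteins bind histones and, in mammals, inhibit the phosphatase PP2A. Both β-catCA libraries lay above both controls, and the log2 change of 0.50 (SE 0.24) did not pass (edgeR adjusted p = 0.45). It kept its sign under all 11 alternatives, from 0.19 to 0.86, the highest without β-catCA lot 1. The second SET gene (ENSDARG00000003920) stood at 793 and 498 CPM in the β-catCA libraries, against 724.5 and 955 CPM in the control libraries, a log2 change of -0.19 (SE 0.35). The abundant gene held 83.6% and 92.5% of SET UMIs in the β-catCA libraries, against 81.4% and 79.1% in the control libraries. The exact intervals ran from 79.1% to 87.5% and 81.8% to 97.9% in the β-catCA libraries. In the control libraries they ran from 75.9% to 86.1% and 73.8% to 83.7%, so all of them overlapped.

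The Anp32 genes gave mixed values. ANP32E, whose mammalian product takes H2A.Z off chromatin, stood at 1144 and 996 CPM in the β-catCA libraries, against 1578 and 1416 CPM in the control libraries. Its groups did not overlap, the log2 change of -0.43 (SE 0.29) did not pass (edgeR adjusted p = 0.67), and it was negative under all 11 alternatives, from -0.67 to -0.35. ANP32A, an acidic histone-binding protein gene, stood at 1128 and 747 CPM in the β-catCA libraries, against 853 and 856 CPM in the control libraries. ANP32B, its relative, had 29 and 5 UMIs in the β-catCA libraries, against 64 and 23 in the control libraries. The control lots of ANP32B thus stood on either side of both β-catCA lots, and its log2 change of -0.58 (SE 0.43) was 0.33 when control lot 1 was left out and -1.12 when control lot 2 was.

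NAP1L1, an H2A-H2B chaperone gene, had 7 and 2 UMIs in the β-catCA libraries, against 10 and 13 in the control libraries, a log2 change of -0.58 (SE 0.64). The Asf1 genes, whose products carry H3-H4, stayed below the filter. ASF1B (ENSDARG00000101037) had 8 and 0 UMIs in the β-catCA libraries, against 5 and 11 in the control libraries, and its copy ENSDARG00000043713 had 4 and 0 against 7 and 3. The 95% intervals were wide, from -1.88 to 0.71 for NAP1L1 and, in the edgeR fit without the filter, from -1.97 to 1.12 and from -2.63 to 1.21 for the 2 ASF1B genes. NAP1L4, nap1l4a, cbx3b and hmga1b had between 2 and 5 UMIs each in all 4 libraries together.

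CBX1, CBX3 and CBX5 encode heterochromatin proteins that bind methylated histone H3. CBX3 (ENSDARG00000003860) had 37 and 2 UMIs in β-catCA lots 1 and 2, against 13 and 15 UMIs in control lots 1 and 2. That was 564 and 249 CPM in the β-catCA libraries and 209 and 247 CPM in the control libraries, so β-catCA lot 1 was high and β-catCA lot 2 level with control lot 2. The log2 change of 1.15 (SE 0.45) did not pass (edgeR adjusted p = 0.37), and it was 0.14 without β-catCA lot 1. CBX5 had 28 and 1 UMIs in the β-catCA libraries, against 25 and 10 in the control libraries. The abundant CBX1 gene (ENSDARG00000004189) had 28 and 4 UMIs against 31 and 18, and its copy ENSDARG00000054442 had 5 and 1 against 7 and 4. The single Polycomb member with UMIs, cbx2, had 9 and 0 UMIs in the β-catCA libraries, against 5 and 5 in the control libraries.

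The spread between the 2 control libraries, which enters every test above, was itself uneven across members. Of 27 members with at least 20 UMIs over the control lots, 6 had a ratio between the lots whose 95% exact interval excluded 1, or 22.2%, beside 108 of 1013 genes in all, or 10.7%. Such intervals narrow as counts rise, and members were not matched by count to the other genes. The 2 shares therefore do not show that members varied more between the lots than other genes. h2ax1 was 2.90 times as high in control lot 2 as in control lot 1, with an interval from 1.91 to 4.53, and h3f3d was 1.55 times as high (1.22 to 1.97). hmga1a had a ratio of 1.18 (1.04 to 1.34). In the other direction, ANP32B was 2.69 times as high in control lot 1 (1.65 to 4.54), CBX5 2.42 times (1.12 to 5.64) and HMGN2 1.44 times (1.08 to 1.94). These ratios use library totals and compare 2 libraries, not conditions.

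**Figure D5:**
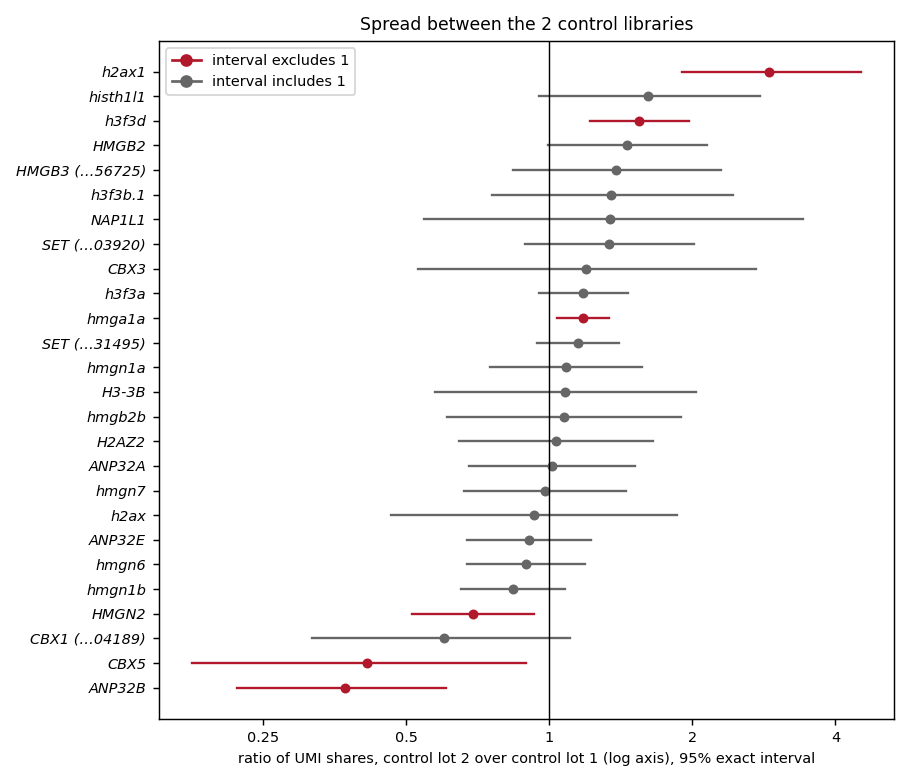
Ratio of UMI shares in control lot 2 over control lot 1 (log axis) for the members with at least 20 UMIs over these 2 libraries (27, of which 1 is not drawn), with 95% exact intervals for counting error. Intervals of h2ax1, h3f3d, hmga1a, HMGN2, CBX5 and ANP32B exclude 1.

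Other genes that supply or handle nucleosomes were also without calls, beside 0.84% of all tested genes. At that share lists this short would seldom hold a call, so its absence is no result about these genes. Of all tested genes 48.2% had positive and 51.8% negative changes. Of the list of other histone chaperones, 11 genes were tested, 8 with positive and 3 with negative changes, and 0 passed. Its smallest p belonged to an SSRP1 gene (ENSDARG00000037397), for a subunit of the chaperone complex FACT. A second gene, ENSDARG00000016994, has the same symbol and is not covered by these values. ENSDARG00000037397 had 16 and 3 UMIs in the β-catCA libraries, against 4 and 6 in the control libraries (log2 change 1.66, SE 0.67, edgeR adjusted p = 0.38). It reached the filter's level only in the β-catCA libraries, at 244 and 373 CPM, against 64.4 and 98.8 CPM in the control libraries. The filter thus favoured a positive change here, and no difference is drawn from this value or from the count of positive changes. ncl, which encodes the nucleolar protein nucleolin, stood at 1327 and 1743 CPM in the β-catCA libraries, against 2559.9 and 1894 CPM in the control libraries (log2 change -0.64, SE 0.29). chaf1a, a subunit of the replication-coupled assembly factor, had 39 and 1 UMIs in the β-catCA libraries, against 22 and 20 in the control libraries.

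Of the genes that process histone mRNA, 4 were tested and 0 passed. slbp, which encodes the stem-loop binding protein, had 12 and 2 UMIs in the β-catCA libraries, against 16 and 14 in the control libraries, and CSTF2, a cleavage factor, had a log2 change of 0.28 (SE 0.27). CPSF2 had 4 and 2 UMIs in the β-catCA libraries, against 6 and 12 in the control libraries. Of 14 tested nucleosome remodeller genes, 6 had positive and 8 negative changes, and 0 passed. MTA3, of the NuRD complex, had 45 and 5 UMIs in the β-catCA libraries, against 26 and 10 in the control libraries (log2 change 1.20, SE 0.43, edgeR adjusted p = 0.23). CHD1 and smarca5, both remodelling ATPases, had log2 changes of 0.91 (SE 0.53) and 0.50 (SE 0.30). Groups overlapped for both.

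Of 14 tested histone-modifying enzymes and readers, 8 had positive and 6 negative changes, and 0 passed. The deacetylase gene HDAC8 had 13 and 2 UMIs in the β-catCA libraries, against 3 and 2 in the control libraries. HDAC8 too reached the filter's level only in the β-catCA libraries, so the filter favoured its positive change, which enters the count above. The Polycomb methyltransferase gene EZH2 had 21 and 3 UMIs in the β-catCA libraries, against 7 and 16 in the control libraries. Replication genes had 6 positive and 9 negative changes among 15 tested, a median of -0.21, and 0 passed. RRM1, a ribonucleotide reductase subunit, had 33 and 7 UMIs in the β-catCA libraries, against 28 and 15 in the control libraries, MCM3, of the replicative helicase, had 22 and 2 against 35 and 27, and LIG1, the replicative ligase, had 50 and 5 against 34 and 28. Proliferation markers summed to 10034 and 8589 CPM in the β-catCA libraries, against 8984 and 8908 CPM in the control libraries, so these groups overlapped like the histone sums.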

How the data were processed

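RNA of GFP-negative cells was measured in 4 CEL-Seq2 libraries, extracted with TRIzol, per the labels' protocols. The deposited table gives UMI counts for each Ensembl gene, as whole numbers that the authors did not normalize. The submitters' processing notes name the GRCz10 build, HTSeq 0.6.1 and Bowtie2 2.3.1. How these were applied, the annotation, the UMI length, the collapsing rule and strand use were not given in the sources used here. Beside 32266 gene rows stood 5 other rows, which held 52.4% and 58.1% of all counts in β-catCA lots 1 and 2 and 57.7% and 58.3% in control lots 1 and 2, and stayed out of library sizes and tests.

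Symbols came from a table of gene IDs, which named 8225 of the 8640 genes with a UMI. Of the members, 20 have symbols in capitals, human-style names for the zebrafish gene, and 8 share a symbol with another member and are given with their IDs. No genome or sequence tables were used here.

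Tests used edgeR 4.0.16 in R 4.3.3: library sizes of all gene UMIs, filterByExpr with its minimum count of 10, trimmed-mean (TMM) factors from the 1071 genes kept (77.6% of gene UMIs), and glmQLFit with robust=TRUE. SE are the log2 change over the root of F. Alternatives were DESeq2 1.42.0, limma 3.58.1 (voom), other size factors, no filter, each library left out and lot number as a block. An exact two-sided test of 2 libraries against 2 cannot go below p = 0.333, so no rank test was made. Class and family sums carry no test. The procedure was also run on simulated data with the same dispersion for every gene. Its outcome is not given here and does not measure what changes of the members could be found. The members, gene lists and naming rule were chosen with earlier results of these data known. By that rule every tested member was described except 1, with the 6 largest members below the filter, the top member of a class with none tested, and up to 3 genes with the smallest p per chromatin list; 1 tested member and 1 list gene are not reported here. Of list entries, 194 of 201 chromatin and replication names and 61 of 62 marker names matched, 35 and 2 of them through human-style symbols.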

Additional observations from a re-analysis of the deposited data

How the results depend on the processing

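The count of 0 members past the threshold held with DESeq2 size factors, library totals alone, trimmed-mean (TMM) factors from all genes (chosen after seeing the data), no filter, DESeq2, limma-voom and the replicate block, and ran from 0 to 1 when each library was left out in turn, the 1 being h2ax1 without control lot 1. Over all tested genes there were 9 calls, which became 2 with DESeq2 size factors, 2 with library totals alone, 1 with TMM factors from all genes, 0 by edgeR with no filter (220 genes at an unadjusted p under 0.05), 1 by DESeq2 and 2 by limma-voom, and ran from 3 without control lot 2 to 17 without β-catCA lot 2. The cause was not tested. DESeq2 size factors shifted the median change of all tested genes by -0.13 and TMM factors from all genes by -0.18. Sums moved farther than these medians: Set went from 0.43 to 0.13 and 0.063, and Hmgb from 0.41 to 0.14 and 0.073, in that order. The directions of sums near 0 and the sizes of the larger ones thus depend on scaling.

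With these 2 scalings, in that order, the log2 ratios of summed UMIs were -0.18 and -0.25 for all members (from 0.021 to 0.14 without single libraries), -0.51 and -0.58 for Anp32, -0.40 and -0.46 for core and variant histones, -0.32 and -0.38 for Hmga, 0.14 and 0.073 for Hmgb, -0.021 and -0.081 for Hmgn, and 0.13 and 0.063 for Set. The main ratios were -0.27 for Anp32, -0.11 for core and variant histones, -0.080 for Hmga and 0.43 for Set. Without the member with most UMIs the ratio was -0.52 for core and variant histones and -0.38 for Set, so the sign of Set turned. For Hmga, where 2 UMIs remain, and linker H1 it was not run.

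Of the 27 tested members, 13 kept their sign under all 11 alternatives and 14 did not. All alternatives reuse the same libraries, and leaving out 1 library can hardly turn the sign of a member whose groups do not overlap. Signs turned for h3f3a with no filter (-0.061) and with TMM factors from all genes (-0.058), and for CBX1 (ENSDARG00000004189) with no filter (-0.048), with TMM factors from all genes (-0.050) and by DESeq2 (-0.031). Without single libraries, log2 changes ran from -0.21 to 0.055 for hmga1a, -0.25 to 0.88 for h3f3a, -0.92 to 0.22 for h3f3d, -1.15 to 0.19 for hmgn6, -0.18 to 0.40 for ANP32A, -0.74 to 0.017 for SET (ENSDARG00000003920), -1.12 to 0.33 for ANP32B, -0.21 to 0.40 for HMGB3 (ENSDARG00000056725), -0.46 to 0.21 for histh1l1, -0.83 to 0.55 for hmgb2b, -0.18 to 0.56 for CBX1 (ENSDARG00000004189), -0.50 to 0.45 for H3-3B, -1.16 to 1.24 for CBX5 and -0.80 to 0.42 for NAP1L1. Signs held, but values moved, for h2ax1 (-1.70 to -0.18), h2ax (-6.77 to -0.43), H2AZ2 (-0.75 to -0.023), HMGB2 (0.17 to 0.87), HMGN2 (0.035 to 0.58), hmgn1a (0.15 to 0.52), SET (ENSDARG00000031495, 0.25 to 0.86) and CBX3 (0.14 to 1.299). Without β-catCA lot 1 its group is the shallow library only, and a lone library is assumed to vary like the other group.

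The labels do not say that equal lot numbers pair libraries, and their deviations from the group means had a correlation of 0.00070 across genes. This value cannot decide pairing, as the β-catCA deviations rest on the shallow lot, where 1 UMI stands for 124.5 CPM. With lot number as a replicate block there were 2 calls over all genes and 0 among members, and signs turned for HMGB3 (ENSDARG00000056725, 0.13) and histh1l1 (0.0057).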
